A study of Mus musculus with 6 samples.

Results

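The 3 Notch receptors Notch1, Notch2 and Notch3, the ligands Dll1, Dll3 and Jag1, and Lfng, an enzyme that modifies the receptors, were followed in cultured neural progenitor cells. The 7 genes were taken by their symbols from a table of 22057 genes. All 7 were found, and all 7 passed the filter for testing, a mean of at least 10 normalized read counts over the 6 libraries. The cells came from 3 mice (62, 68 and 69) labelled p53-null, a genotype that both groups share, so no library has intact p53 by its label. In the EF group (n = 3), the control of the series, cells were held for 4 days in a stem cell medium that contained heparin, fibroblast growth factor and epidermal growth factor. In the PDGFA group (n = 3) cells of these mice spent 4 days in the medium with PDGFA, a platelet-derived growth factor, labelled at 20 ug/ml. The sources used here do not give the p53 allele, the brain region or the age of the mice. Removal of one set of factors and addition of another happened together, so the 2 cannot be told apart in any difference below.

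Notch receptors are single-pass membrane proteins that are activated by ligands on a neighbouring cell. Pulling by the bound ligand, which needs endocytosis in the ligand-bearing cell, lets ADAM proteases and then gamma-secretase cut the receptor, and the freed intracellular part joins the DNA-binding protein RBPJ in the nucleus to switch on genes such as Hes1 and Hes5. Fringe enzymes (Lfng, Mfng, Rfng) add a sugar to the receptor, and the action of Lfng and Mfng favours Delta-like over Jagged ligands. In the developing brain the pathway is known for keeping neural progenitors undifferentiated, and in the oligodendrocyte lineage for holding back maturation.

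The libraries held 27270246 to 39601349 recovered reads, and the 7 genes between 306 and 34228 reads per library, so counting error is small beside the spread between libraries. The EF libraries carried the neural progenitor marker Nes, an intermediate filament, at 21108 to 48051 normalized counts, and the PDGFA libraries at 1600 to 3420. Sox2, a progenitor transcription factor, rose, reading 8502 to 13553 in EF and 16806 to 18871 in PDGFA (adjusted p = 0.0291), a call lost without EF 68 or any 1 of the PDGFA libraries (0.0547 to 0.115; 0.0076 to 0.188 over the alternatives). Of the 12 progenitor markers, 4 were called higher (Sox2, Prom1, Msi1 and Hes5) and 4 lower (Nes, Vim, Fabp7 and Fut4), names given after their values were seen. The summed level of 14 markers of maturing oligodendrocytes was 5028 to 8225 in EF and 424851 to 507852 in PDGFA, with all 14 called higher. That of 12 astrocyte markers was 34470 to 70700 in EF and 181237 to 279152 in PDGFA, with 8 called higher. The part of these cell states in the values of the Notch genes was not tested, and in bulk RNA fewer cells of a type and less RNA per cell cannot be told apart. The EF library of mouse 68 (EF 68, and likewise for the other libraries) stood apart from the other EF libraries: in 11 of 12 markers of oligodendrocyte precursors it was above both of them, for example Pdgfra at 14133 against 861 and 533. It was also the highest EF library for Notch1, Notch3, Dll1 and Dll3 and the lowest for Jag1, so values of the members without it are given beside the results that rest on it.

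Of the 7 genes, Jag1, Lfng and Notch1 were lower in PDGFA and none was higher, at an adjusted p under 0.05. Among all 17068 genes tested, 18.0% were called lower, 21.8% higher and 39.8% in either direction, so calls were common and 3 of 7 is close to that last share. No member passed in the upward direction at an unadjusted p under 0.05 in limma, and edgeR and DESeq2 also called 0 members higher. The same 3 genes were those whose groups did not overlap, where 26.3% of all genes lay entirely lower in PDGFA, 29.2% entirely higher and 55.5% either way. Without the EF library of mouse 68 the calls were Jag1 and Lfng lower, and Notch3 and Dll3 higher.

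**Figure D1:**
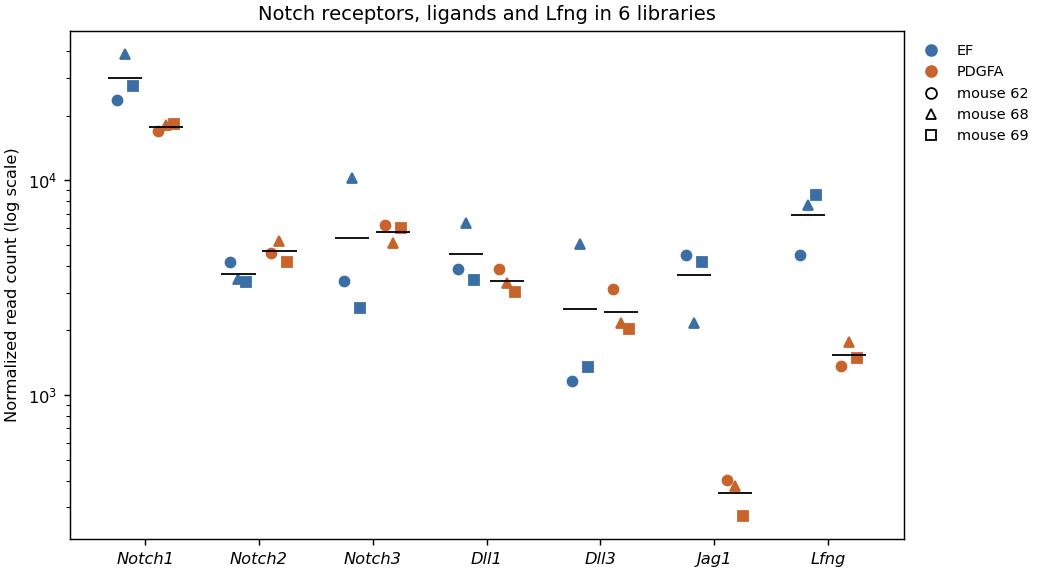
Normalized read count (log scale) of the 7 genes in each of the 6 libraries; colours give the group, shapes the mouse and bars the group mean. The PDGFA points of Jag1 (274 to 401) and Lfng (1362 to 1769) lie below all EF points, while Notch3 and Dll3 have 1 high EF library, that of mouse 68.

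Among the ligands, Jag1 changed most. Jag1 encodes Jagged1, a ligand with a cysteine-rich extracellular region, and lies on chromosome 2 from 137081456 to 137116644 on the minus strand (GENCODE M21, GRCm38). Its normalized count in EF was 4511, 2164 and 4152 for mice 62, 68 and 69. In PDGFA it was 401, 378 and 274 for the same mice. Every PDGFA library was thus below every EF library, and the lowest EF value belonged to mouse 68. The group means were 3609 ± 1264 and 351 ± 67.8 (SD, n = 3), a 10.3-fold lower mean, and the log2 fold change was -3.31 (adjusted p = 0.000178, SE 0.30). The log2 ratio within a mouse was -3.49 for mouse 62, -2.51 for mouse 68 and -3.92 for mouse 69. Of all genes tested, 6.36% were called and at least 4-fold lower. Jag1 stayed called in all 17 alternative settings, with log2 fold changes from -3.70 to -3.0 and adjusted p from 3.69e-23 (DESeq2) to 0.00657.

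Dll1 encodes Delta-like 1, a ligand carried by differentiating neural cells, and lies on chromosome 17 from 15367354 to 15376872. Its normalized count was 3872, 6353 and 3439 in EF against 3859, 3322 and 3028 in PDGFA for mice 62, 68 and 69. The values of mouse 62 were nearly equal in the 2 media and the ranges overlapped, although PDGFA was the lower one in all 3 mice. The log2 fold change was -0.37 (adjusted p = 0.249, SE 0.24), and -0.11 without the EF library of mouse 68.

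Dll3, on chromosome 7 from 28293553 to 28302238, encodes a divergent Delta-like protein that is known to sit largely inside the cell and to inhibit Notch signalling in the same cell. It read 1165, 5074 and 1346 in EF against 3129, 2159 and 2025 in PDGFA. The PDGFA values lay between the high EF library of mouse 68 and the 2 other EF libraries. The log2 fold change was 0.26 (adjusted p = 0.723, SE 0.53), with mice 62 and 69 higher in PDGFA (log2 ratios 1.43 and 0.59) and mouse 68 lower (-1.23). Without the EF library of mouse 68 the log2 fold change was 0.93 and the adjusted p = 0.0211, and over the alternatives it spanned 0.0211 to 0.977. The sign of the estimate turned in edgeR (-0.053) and DESeq2 (-0.059), and the plain group means, 2528 ± 2207 in EF and 2438 ± 603 in PDGFA, also stand the other way.

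**Figure D2:**
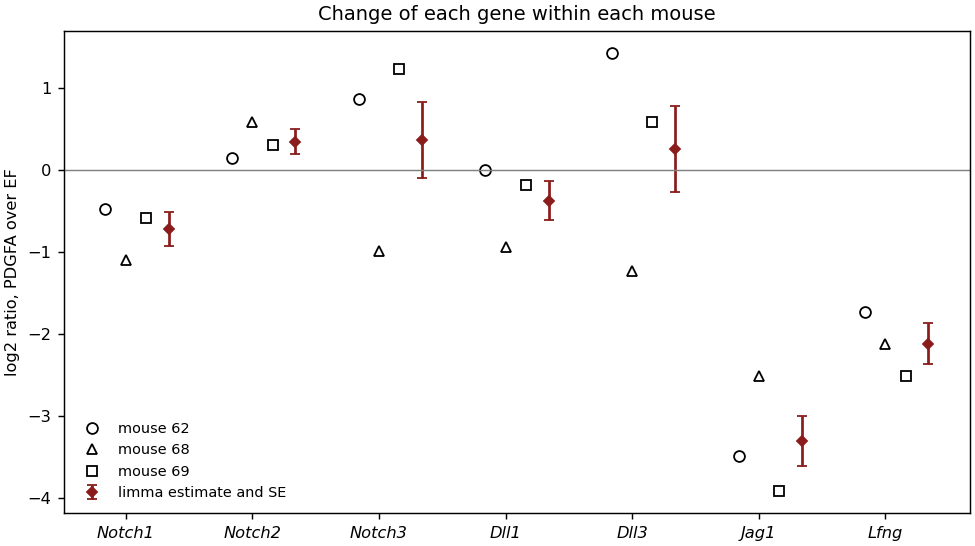
Log2 ratio of PDGFA over EF within each mouse (open symbols) and the limma estimate with its standard error (filled diamonds) for the 7 genes. The 3 mice of Jag1 lie between -3.92 and -2.51 and those of Lfng between -2.51 and -1.73, while for Notch3 and Dll3 mouse 68 lies below 0 and the other 2 mice above.

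The receptors moved little beside Jag1. Notch1, on chromosome 2 from 26457903 to 26516663, is the receptor most often tied to progenitor maintenance. Its normalized count was 23518, 38537 and 27370 in EF against 16881, 18061 and 18289 in PDGFA for mice 62, 68 and 69. The PDGFA libraries lay close together and below all EF libraries. The means were 29808 ± 7801 and 17744 ± 756, a 1.68-fold lower mean, and the log2 fold change was -0.72 (adjusted p = 0.0304, SE 0.21). This call was near the threshold. With the mouse as a block the adjusted p was 0.0501. Without the EF library of mouse 68 it was 0.0519 (log2 fold change -0.52), and without the PDGFA library of mouse 62, 68 or 69 it was 0.108, 0.1 or 0.082. Without both libraries of mouse 68 or of mouse 69 it was 0.212 or 0.106. Over the 17 alternatives it ran from 0.00331 (DESeq2) to 0.212, with the direction kept in all 17. The kit does not mark strand, and 2 genes that overlap Notch1 on the opposite strand reached at most 0.294% of its count. Inside Notch2, 2 predicted genes on the same strand reached at most 2.28% of the Notch2 count.

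Notch2, on chromosome 3 from 98013527 to 98150361, read 4165, 3478 and 3344 in EF against 4605, 5232 and 4143 in PDGFA. It was higher in PDGFA in all 3 mice, while the lowest PDGFA value lay just under the highest EF value. The log2 fold change was 0.35 (adjusted p = 0.104, SE 0.15), and Notch2 was called without the EF library of mouse 62 (adjusted p = 0.0345; 0.0345 to 0.537 over the alternatives).

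Notch3, on chromosome 17 from 32120820 to 32166852, is also known as the receptor of vascular mural cells. It read 3404, 10216 and 2542 in EF against 6194, 5130 and 5962 in PDGFA. As for Dll3, the EF library of mouse 68 stood above all others, and the 2 other EF libraries below all PDGFA libraries. The log2 fold change was 0.37 (adjusted p = 0.560, SE 0.46). Without the EF library of mouse 68 it was 0.97, with adjusted p = 0.0087, and without the EF library of mouse 69 it was -0.038, with adjusted p = 0.952 (0.0087 to 0.952 over the alternatives). Of 8 tested mural and fibroblast markers, 2 were called higher and 3 lower. Cspg4 and Pdgfra of this list are also in the list of oligodendrocyte precursor markers. Cspg4 fell, reading 7218 to 30164 in EF, highest in EF 68, and 3138.5 to 4646 in PDGFA (adjusted p = 0.0237). Pdgfrb, the receptor of mural cells for platelet-derived growth factor B, read 6.70 to 45.0 in EF and 711 to 901 in PDGFA (adjusted p = 0.000396), and Rgs5 read 0 to 5.63 and 32.3 to 78.8 (adjusted p = 0.00275). Tagln fell, reading 14.1 to 27.0 in EF and 6.27 to 10.5 in PDGFA (adjusted p = 0.0436), and Acta2 read 10.5 to 22.5 and 4.77 to 11.6 (adjusted p = 0.147). The part of these markers in the values of Notch3 was not tested.

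Lfng, or Lunatic fringe, lies on chromosome 5 from 140607320 to 140615545 on the plus strand. Its normalized count was 4510, 7694 and 8523 in EF against 1362, 1769 and 1494 in PDGFA for mice 62, 68 and 69. All EF libraries exceeded all PDGFA libraries by a wide margin. The means were 6909 ± 2119 and 1542 ± 208, a 4.48-fold lower mean, and the log2 fold change was -2.12 (adjusted p = 0.00057, SE 0.25). Of all genes tested, 12.1% were called and at least 2-fold lower. The call of Lfng held in all 17 alternatives, with log2 fold changes from -2.40 to -1.92 and adjusted p from 1.05e-13 (DESeq2) to 0.0129.

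The bases before the start sites of Lfng and Jag1 are shown because these were the members with the largest changes. Promoter windows of 250 bases before each RefSeq start were searched on both strands for TGGGAA, the core of the site that RBPJ binds, for GTGGGAA, which contains that core, and for CAGCTG, an E-box read by proneural factors. Capitals mark matches, and bases that GENCODE M21 places in an exon are left off the 3′ end. The sequences are from RefSeq, build GRCm38.p6, written on the strand of the gene. They cover chr5:140607091-140607319 (plus strand, 229 bases) and chr2:137116645-137116770 (minus strand, 126 bases).
Lfng: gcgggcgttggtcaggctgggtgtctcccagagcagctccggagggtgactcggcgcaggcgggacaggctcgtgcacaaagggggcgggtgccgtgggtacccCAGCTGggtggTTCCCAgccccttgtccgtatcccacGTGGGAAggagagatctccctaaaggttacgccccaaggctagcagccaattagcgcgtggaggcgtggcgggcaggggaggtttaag
Jag1: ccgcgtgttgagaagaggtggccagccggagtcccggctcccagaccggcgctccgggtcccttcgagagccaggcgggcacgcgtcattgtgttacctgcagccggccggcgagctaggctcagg
The Lfng window held the RBPJ core at 135 and 108 bases before the start, the second of them with the leading G, and an E-box at 146. Of the 8 windows of the 7 genes (Dll1 has 2 starts), 1 held the RBPJ core, against 21.6% of 32851 promoter windows of the same length, and GTGGGAA was in 5.42% of all. The E-box was in 4 of the 8 windows, those of Lfng, Jag1, Dll3 and 1 of the 2 of Dll1, against 13.0% of all windows. The Jag1 match lies 82 bases before the start, outside the stretch shown. This match and that of Dll3, 7 bases before the start, lie inside the GENCODE bounds of their genes. For Dll3 and Dll1 the upstream end of each window is in a GENCODE exon. These letters are a description of the windows and show no binding.

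Levels of different genes were compared as normalized counts per kilobase of merged exons. In EF, Lfng (2758 ± 846 per kb, SD, n = 3) and Notch1 (2094 ± 548) were the highest, above 98.2% and 97.2% of the genes tested. By this length Lfng was above Notch1 in all 3 EF libraries, while the 2 ranges overlapped. That order rests on the length used. Notch1 has 14232 bases of merged exons but a longest transcript of 9488, against 2505 and 2305 for Lfng. Divided by the longest transcript, Notch1 would have the higher mean in EF. Dll1 (1080 ± 373), Dll3 (887 ± 774), Notch3 (666 ± 520), Jag1 (619 ± 217) and Notch2 (340 ± 40.8) followed. From Dll1 downward the ranges of neighbours overlapped, so that part of the order is not resolved by their spread. It also rested on EF 68: the means without it were 866 for Dll1, 743 for Jag1, 440 for Dll3, 368 for Notch3 and 348 for Notch2, which puts Jag1 above Dll3 and Notch3. In PDGFA the order was Notch1 (1247 ± 53.1), Dll3 (855 ± 211), Dll1 (807 ± 99.9), Notch3 (712 ± 69.1), Lfng (616 ± 82.9), Notch2 (432 ± 50.7) and Jag1 (60.3 ± 11.6). There, Notch1 lay above all other members and Jag1 below all others without overlap, while Dll3, Dll1, Notch3 and Lfng overlapped with their neighbours in the order. The order of Dll3 and Dll1 there also rests on the length used. By merged exons Lfng passed from rank 1 to rank 5, and Jag1 from above 85.5% of the genes tested to above 36.4%.

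The shares among the 3 member receptors and among the 3 member ligands followed from these levels. Notch4, Jag2 and Dll4 are outside these sums, so the shares are not those of all receptors or ligands. In PDGFA, Jag2 read 334 to 406 normalized counts, not divided by length, beside 274 to 401 for Jag1. Dll3 is counted among the ligands although it is known to sit largely inside the cell. Notch1 made up 67.2%, 63.1% and 75.5% of the summed receptor level per kb in the EF libraries of mice 62, 68 and 69, against 49.9%, 53.1% and 53.4% in their PDGFA libraries. These shares rest on the length used. Divided by the longest transcript (9488 bases against 14232 of merged exons), Notch1 would hold a larger share in both groups. The groups did not overlap (means 68.6% ± 6.33 and 52.1% ± 1.97, n = 3, exact two-sided permutation p = 0.1, the smallest that 3 against 3 can give). Jag1 made up 36.9%, 10.2% and 35.6% of the summed level of Dll1, Dll3 and Jag1 in EF and 3.31%, 4.03% and 3.19% in PDGFA. These groups did not overlap either (means 27.5% ± 15.1 and 3.51% ± 0.455, n = 3, exact two-sided permutation p = 0.1). In the EF library of mouse 68 Dll3 had the largest share, with 48.7% of the ligand level against 19.5% and 23.6% in the other EF libraries and 47.1% to 52.7% in PDGFA. Per kb, Dll3 was at 1780 there, against 409 and 472 in EF 62 and EF 69. Jag1 was at 371 against 774 and 713, so its low share in EF 68 came from a larger sum as well as a lower level. Dll1 held 40.8% to 43.7% in EF and 43.9% to 48.9% in PDGFA. Notch2 held 7.51% to 15.7% of the receptor level in EF and 16.0% to 20.3% in PDGFA. Neither share overlapped between the groups (exact two-sided permutation p = 0.1 for each), while those of Notch3 and Dll3 did. Shares of a set are tied together by their sum, so these rises are not separate from the falls of Jag1 and Notch1. The count of Dll1 itself was lower in PDGFA in all 3 mice. The summed ligand level was 2100, 3658 and 2000 per kb in EF and 2082, 1610 and 1475 in PDGFA. The summed receptor level itself was 2460, 4293 and 2547 per kb in EF and 2379, 2389 and 2406 in PDGFA. By merged exons, the sums of the 2 media thus lay close together without mouse 68, which also rests on the length used for Notch1.

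**Figure D3:**
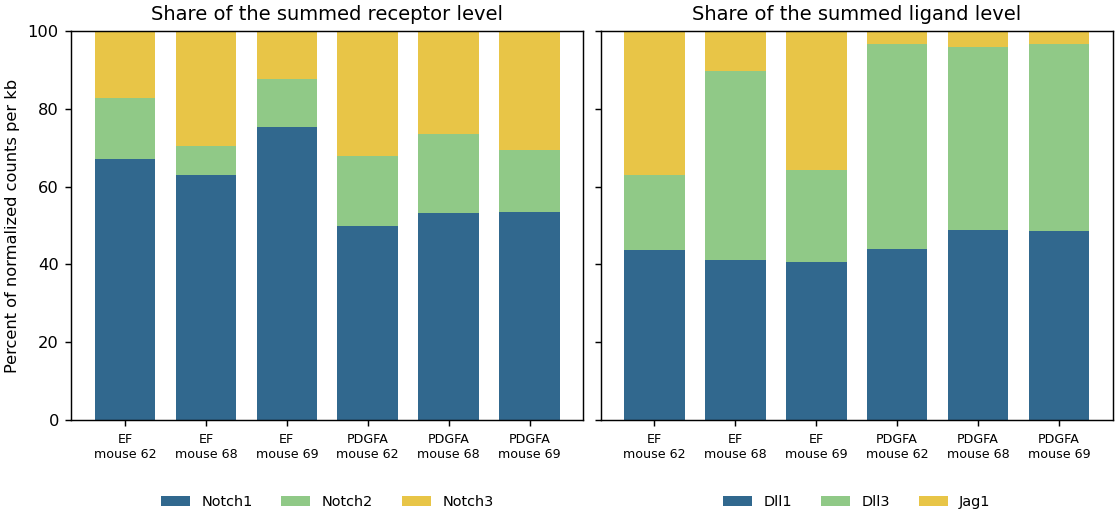
Share of each receptor (left) and ligand (right) in the summed normalized counts per kilobase, in percent, 1 bar per library. Jag1 takes 10.2% to 36.9% of the ligand bars in EF and 3.19% to 4.03% in PDGFA.

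The other genes of the pathway were taken from 7 lists with 93 genes, of which 86 were tested. Of these, 19 were called higher and 19 lower (22.1% each), close to the 21.8% and 18.0% of all genes, and their median log2 fold change was 0.022 (from -0.045 to 0.055 over the alternatives) against -0.0095 for all genes. Without the PDGFA library of mouse 68 the counts were 11 and 13, and without that of mouse 69 they were 11 and 15. The pooled 86 genes thus had calls in both directions at shares near the background, and single genes carried the large values. Single lists lay farther from it. Of the 14 genes listed as responsive to Notch, 42.9% were called higher and 35.7% lower. Of the 17 genes of the nuclear complex and its corepressors, 5.88% were called in each direction. These list shares were not tested against the background.

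**Figure D4:**
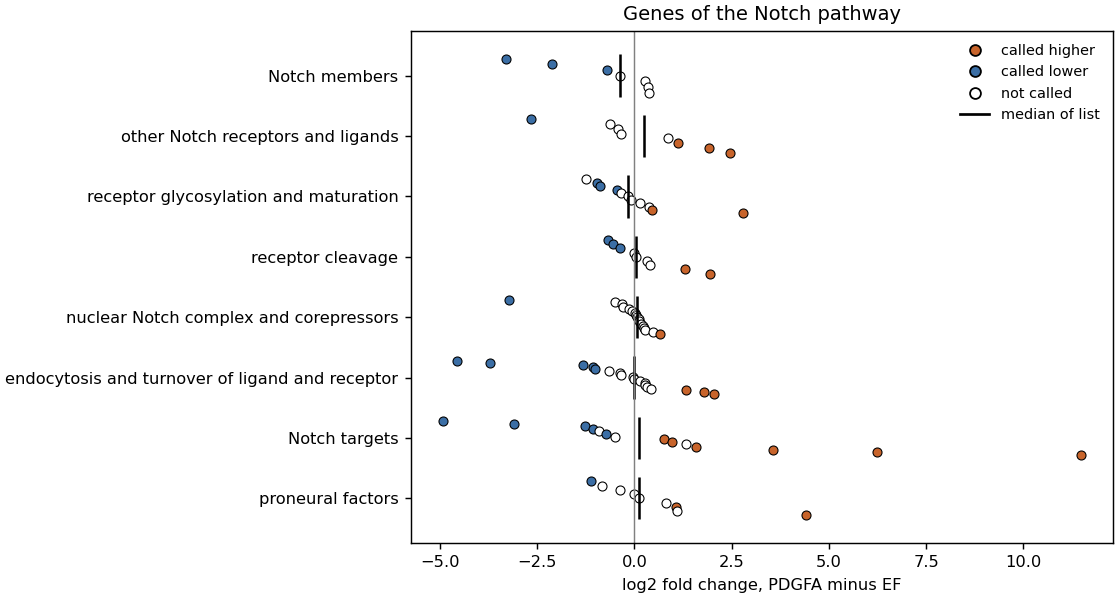
Log2 fold change (PDGFA minus EF) of every tested gene in the 8 lists, the members included; filled points were called at an adjusted p under 0.05 and black bars are list medians. The list medians lie between -0.37 and 0.25 (the latter turned in other settings), while single genes such as Neurl1b (-4.57) and Tle2 (-3.23) stand far out.

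Of 8 other tested receptors and ligands, 3 were called higher and 1 lower. Their median log2 fold change, 0.25, had no stable sign: it was -0.27 without EF 62, -0.37 without both libraries of mouse 62, -0.084 in edgeR and -0.091 in DESeq2, and 0.85 over the 7 genes with a mean of at least 50. Jag2, the second Jagged ligand, read 86.2, 133 and 81.8 in EF against 406, 334 and 375 in PDGFA, which is a log2 fold change of 1.91 (adjusted p = 0.00121, SE 0.26). Jag1 and Jag2 thus had opposite signs, and no value of the 2 media overlapped for either. Dll4, a ligand best known from vessel sprouting, read 118, 396 and 94.6 in EF against 22.1, 22.0 and 33.1 in PDGFA, and the log2 fold change was -2.65 (adjusted p = 0.00794) that became -2.02 without the EF library of mouse 68. Dll4 was not called without both libraries of mouse 68 (adjusted p = 0.0556; 4.45e-06 to 0.0556 over the alternatives). Of 6 tested endothelial markers, 2 were called higher and 1 lower. Pecam1 fell, reading 17.9 to 33.8 in EF and 8.59 to 10.2 in PDGFA (adjusted p = 0.029). Kdr rose, with 36.4 to 90.1 in EF and 412 to 669 in PDGFA (adjusted p = 0.000624), as did Vwf, with 33.2 to 98.0 and 219 to 297 (adjusted p = 0.00799). Flt1, like Dll4 highest in EF 68, read 30.6, 332 and 20.5 in EF against 16.1, 8.59 and 20.6 in PDGFA (adjusted p = 0.147). Their part in the values of Dll4 was not tested. Dlk2, a Delta-like protein without the usual receptor-binding domain, rose by 2.46 on the log2 scale from 27.2 ± 10.8 to 148 ± 17.9. Mfap2, a microfibril protein, rose by 1.13 (adjusted p = 0.0324), a call that was lost without the EF library of mouse 62 or the PDGFA library of mouse 68 or 69 (0.0566, 0.106 and 0.116; 0.00529 to 0.134 over the alternatives). Notch4 was low, at 35.8 to 69.8 in the 6 libraries, and was not called (adjusted p = 0.445).

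Of 11 genes that glycosylate or mature the receptor, 2 were called higher and 3 lower. The counts were 1 and 1 without PDGFA 68, 0 and 2 without PDGFA 69, and 1 and 2 without EF 68 or PDGFA 62. Mfng, or Manic fringe, went against Lfng: it read 45.0, 198 and 373 in EF against 1052, 987.3 and 1112 in PDGFA, which is a log2 fold change of 2.80 (adjusted p = 0.0142, SE 0.67). The 3 EF libraries spread widely, and the estimate was 1.94 without that of mouse 62 and 3.46 without that of mouse 69. Mfng lost its call without the PDGFA library of mouse 69 (adjusted p = 0.0515; 0.000253 to 0.0703 over the alternatives). For Rfng, the third fringe, the log2 fold change was 0.36 (adjusted p = 0.079). Poglut2, an enzyme that adds glucose to epidermal growth factor-like repeats, fell by 0.95 (adjusted p = 0.0066) and Eogt, which adds N-acetylglucosamine to such repeats, fell by 0.89 (adjusted p = 0.0103). Poglut2 was not called without both libraries of mouse 68 (0.0512; 6.45e-05 to 0.0512 over the alternatives). Eogt was not called without the PDGFA library of mouse 68 (0.0613; 2.74e-05 to 0.14 over the alternatives). Furin, the protease that cuts the receptor in transit, rose by 0.46 (adjusted p = 0.0356). Blocking on the mouse gave an adjusted p of 0.0686, and without EF 68 or any single PDGFA library it was 0.0678 to 0.157 (0.0157 to 0.26 over the alternatives). Gxylt1, a xylosyltransferase, fell by 0.45 (adjusted p = 0.0495) and had 0.117 with the block. It was called without EF 62 but not without EF 68, EF 69 or any single PDGFA library (0.0648 to 0.167; 0.0245 to 0.197 over the alternatives).

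Of 9 genes of receptor cleavage, 2 were called higher and 3 lower. The lower count was 0 without EF 68 or any single PDGFA library, and the higher count was 1 without EF 69, PDGFA 68 or PDGFA 69. Psen2, a catalytic subunit of gamma-secretase, read 168, 177 and 128 in EF against 571, 594 and 630 in PDGFA (log2 fold change 1.93, SE 0.20, adjusted p = 0.000353). Adam10, the main protease of ligand-bound receptor, went from 7665 ± 1654 to 4675 ± 270, which is a log2 fold change of -0.69 (adjusted p = 0.0194), and Adam17 and Ncstn, the latter a gamma-secretase subunit, fell by 0.37 (adjusted p = 0.0448) and 0.55 (adjusted p = 0.0301). None of these 3 falls kept its call when EF 68 or any 1 of the PDGFA libraries was left out, with adjusted p of 0.0511 to 0.0725 for Adam10, 0.0717 to 0.184 for Adam17 and 0.0615 to 0.118 for Ncstn. Adam17 was also not called without EF 69 (0.0607). Their adjusted p spanned, over all alternatives, 0.00196 to 0.13 for Adam10, 0.0166 to 0.257 for Adam17 and 0.00972 to 0.271 for Ncstn. With the mouse as a block, Adam17 (0.125) and Ncstn (0.059) were not called. Aph1c, another subunit, has a near copy in Aph1b, so its value is uncertain. It rose by 1.30 (adjusted p = 0.0274) at a low level, 39.5 ± 13.2 in EF and 97.5 ± 23.9 in PDGFA. It was not called without EF 69 or PDGFA 68 or 69 (0.0571, 0.122 and 0.0947; 0.00557 to 0.15 over the alternatives).

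Of 17 genes of the nuclear complex and its corepressors, 15 were not called, 1 was called higher and 1 lower. There were 2 higher calls without EF 62, 0 without EF 68, PDGFA 68 or PDGFA 69, and 2 lower calls without EF 69. Rbpj, singled out after its values were seen, read 1771, 1696 and 2033 in EF against 2044, 2168.5 and 1752 in PDGFA, which is a log2 fold change of 0.12 (adjusted p = 0.555, SE 0.14). Tle2, a Groucho-type corepressor, was the exception in size. It read 3784, 2511 and 2022 in EF against 251, 241 and 384 in PDGFA (log2 fold change -3.23, SE 0.28, adjusted p = 0.000143). Tle1, its paralog, rose by 0.67 (adjusted p = 0.0229), with 0.0506 under the block. It was not called without EF 68 or 69 (0.0563 and 0.0531) or PDGFA 68 or 69 (0.1 and 0.089), in a range of 0.00773 to 0.192.

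Of 18 genes of ligand and receptor endocytosis and turnover, 3 were called higher and 5 lower, counts that stayed at 3 and 5 when any single library was left out except EF 62 (5 and 5). The falls were led by the 2 Neuralized ubiquitin ligases, which act on ligands. Neurl1b read 1246, 2843 and 2833 in EF against 77.2, 80.2 and 116 in PDGFA, and so its mean was 25.3-fold lower in PDGFA (log2 fold change -4.57, SE 0.35, adjusted p = 8.69e-05). Neurl1a read 686, 672 and 764 in EF against 82.3, 45.8 and 38.5 in PDGFA (log2 fold change -3.72, SE 0.31, adjusted p = 0.000124). Mib1, the ligand ubiquitin ligase of wider use, was at 9508 ± 850 and 11431 ± 391 (log2 fold change 0.27, adjusted p = 0.153), named after its values were seen. Aak1, a kinase of clathrin-coated pits that acts on Numb, fell by 1.06 (adjusted p = 0.000719). Numbl, a relative of the Notch inhibitor Numb, rose from 848 ± 128 to 3512 ± 271, which is a log2 fold change of 2.06 (adjusted p = 7.24e-05, SE 0.15). Dtx1 and Dtx3, Deltex-type ubiquitin ligases, rose by 1.79 (adjusted p = 0.00895) and 1.31 (adjusted p = 0.000907). Dtx1 was not called without both libraries of mouse 62 (0.0549; 0.000428 to 0.0549 over the alternatives). Fbxw7, which marks the freed receptor fragment for destruction and was named after its values were seen, fell by 1.02 (adjusted p = 0.00148).

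**Figure D5:**
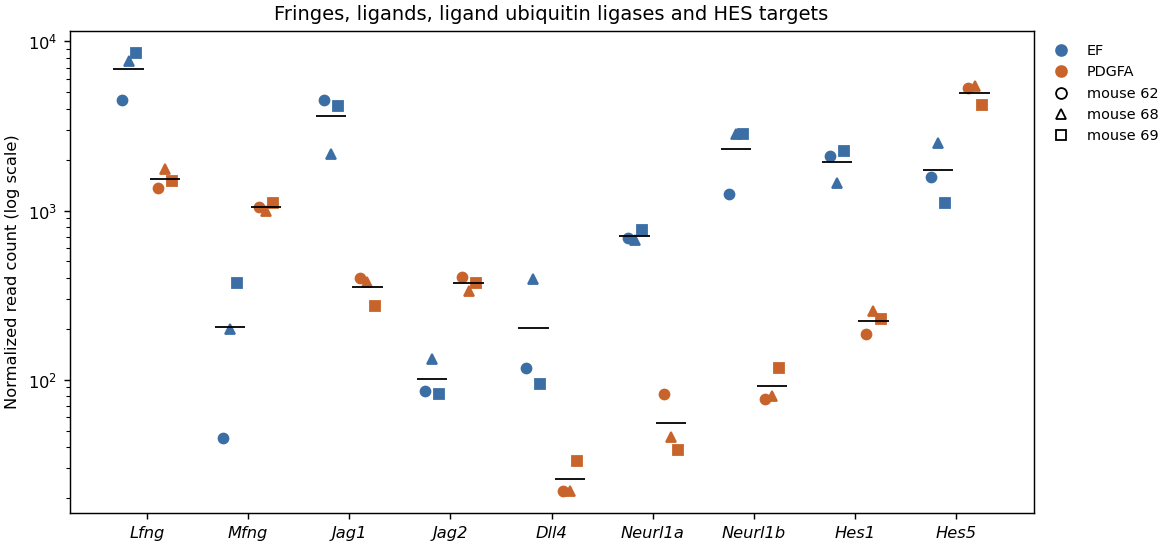
Normalized read count (log scale) of the fringes Lfng and Mfng, the ligands Jag1, Jag2 and Dll4, the ligand ubiquitin ligases Neurl1a and Neurl1b, and the targets Hes1 and Hes5 in 6 libraries; bars are group means. Lfng, Jag1, Dll4, Neurl1a, Neurl1b and Hes1 are lower in all PDGFA libraries, and Mfng, Jag2 and Hes5 are higher in all of them.

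Of 14 tested genes listed as responsive to Notch, many of which answer to other inputs as well, 6 were called higher and 5 lower, with a median of 0.13 that turned to -0.50 over the 13 genes with a mean of at least 50. Without the PDGFA library of mouse 68 the counts were 4 and 5. The 2 classical targets had opposite signs. Hes1 read 2101, 1451 and 2259 in EF against 185, 255 and 228 in PDGFA (log2 fold change -3.10, SE 0.22, adjusted p = 6.21e-05). Hes5 read 1582, 2501 and 1111 in EF against 5316, 5457 and 4180 in PDGFA (log2 fold change 1.59, SE 0.29, adjusted p = 0.00401). Neither gene had overlapping groups. Hey1 and Hey2, chosen after their values were seen, rose by 0.96 (adjusted p = 0.019) and 3.56 (adjusted p = 0.006), Hey2 from only 11.7 ± 11.4 to 125 ± 56.5. Hey1 was not called without PDGFA 62 or 68 (0.0713 and 0.0825; 0.00191 to 0.109 over the alternatives), and the log2 fold change of Hey2 was 4.27 without EF 68. Nrarp, a target that feeds back on the receptor complex and was also chosen so, read 1236, 3624 and 1428 in EF against 1192, 1132 and 696 in PDGFA (log2 fold change -0.92, adjusted p = 0.116). Without EF 68 it was -0.44. DESeq2 called Nrarp (0.0372; 0.0372 to 0.313 over the alternatives). The other genes that the rule names from this list were Gfap, an astrocyte filament, which rose by 11.48, Id4, a helix-loop-helix inhibitor, which rose by 6.24, the cyclin Ccnd1, which fell by 4.93, and Bcl2, a survival protein, which fell by 0.73 (adjusted p = 0.00777). Bcl2 was not called without both libraries of mouse 69 (0.0547; 0.000158 to 0.0547 over the alternatives). Gfap and Sox9 of this list are also astrocyte markers, and Fabp7 and Hes5 are also progenitor markers in the lists used.

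Of 9 tested proneural and early neuronal genes, 2 were called higher and 1 lower, with a median of 0.10, also with Ebf2 at its bound, and -0.041 without PDGFA 62 or -0.023 over the 7 genes with a mean of at least 50. The lower count was 2 without EF 62 and 0 without EF 69, PDGFA 62 or PDGFA 68. Myt1, a zinc finger factor, rose by 1.07 (adjusted p = 0.0482). The call was absent in edgeR (0.067), under another scaling (TMM, 0.0542) or without any single PDGFA library (0.0704 to 0.145; 0.0101 to 0.145 over the alternatives). Ebf2 had 0 reads in the 3 EF libraries and 19, 21 and 28 reads in PDGFA, at least 18.5-fold higher against a floor of 3 reads over the EF group. Without any single PDGFA library Ebf2 fell under the filter and was not tested, and the list then held 0 higher calls.

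The genes with the most similar profiles were found by the root mean square difference of mean-centred log2 values over the 6 libraries, among 11963 named genes with a mean of at least 50. For Jag1 they were Kitl (0.167), Plk2 (0.262) and Creb5 (0.264). For Lfng they were Trim59 (0.104), Fam181b (0.133) and H4c9 (0.135), the last a histone gene with near-identical copies, so its value is uncertain. For Notch1 they were Pgm1 (0.0688), Ttyh3 (0.0874) and Ptpru (0.0896), and for Notch2 they included Mapk9 (0.0516) and Specc1l (0.0517). For Notch3 they were Lrp1 (0.133), Tmtc1 (0.19) and Slitrk2 (0.238), and for Dll3 Nav3 (0.18), Ptprd (0.209) and Vcan (0.22). For Dll1 they were Bahcc1 (0.0879), Spats2l (0.0917) and Arhgef4 (0.102). Among the members themselves the closest pairs were Notch1 with Dll1 (0.255) and Notch3 with Dll3 (0.262), and Jag1 was farthest from Notch3 (2.07). Without EF 68 these values were 0.279, 0.270 and 2.27, and Notch2 with Dll1 was then the closest pair (0.247, against 0.486 with all libraries). Both former pairs share the high EF library of mouse 68, which stood at 3.44 times the mean of the other EF libraries for Notch3, 4.04 times for Dll3, 1.74 times for Dll1 and 1.51 times for Notch1, but at 0.50 times for Jag1. In the precursor markers Pdgfra and Lhfpl3 the same library stood at 20.3 and 4.18 times that mean.

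Over all 3 mice the SD of log2 values was higher in EF than in PDGFA for 6 of the 7 genes and equal for Notch2, and this rested in part on EF 68. For Notch3 it was 1.06 in EF, 0.298 without EF 68, and 0.144 in PDGFA. For Dll3 it was 1.17 in EF, 0.148 without EF 68, and 0.339 in PDGFA. Without EF 68, a choice made after seeing the data that leaves 2 EF libraries, the SD was higher in EF for 4 genes and in PDGFA for 3, namely Dll1, Dll3 and Jag1. Over all genes tested the median SD with all libraries was 0.38 in EF and 0.172 in PDGFA.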

How the data were processed

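Polyadenylated RNA of 6 libraries was read, made from 1.3 ug of total RNA each with the NEBNext Ultra II RNA kit, per the labels' protocols. Strand is not marked by this kit. The authors deposited 1 table of normalized counts, a signal made by dividing read counts by 1 size factor per library; STAR, DESeq2, FastQC and builds mm10 and GRCm38 are named per the submitters' processing notes. The sources used here do not give the annotation release or the counting settings. Dividing by each library's smallest value above 0 gave whole reads for 100% of values (tolerance 0.001). Genes with a mean of at least 10 (17068 of 22057) entered limma 3.58.1 in R 4.3.3 on the scale log2(normalized count + 1) (mean trend, two-sided, Benjamini-Hochberg adjustment at 0.05 over all genes), a scale that understates changes of low genes. Single adjusted p-values are from this fit or its variants unless edgeR 4.0.16 or DESeq2 1.42.0, run on the recovered reads, is named. Ranges over the alternatives include edgeR and DESeq2. The fit was checked on simulated reads with large changes in a small part of the genes and equal dispersion in both groups. That check does not cover the smaller changes or the unequal spread of these data. The 3 mice are in both groups, per the titles, so the numbers pair libraries by animal. Deviations from group means of the 2 libraries of a mouse had correlations of -0.0906, 0.11 and -0.11 for mice 62, 68 and 69. Libraries of a group come from separate mice, and all pairs differed by more than sampling noise (chi-square over its degrees of freedom 19.98 to 140). Members and lists were chosen with earlier results of these data known. Beside the 7 members, up to 3 rising and 3 falling called genes with the smallest p were named from each list, and the 3 nearest profiles of each member; others are said to be chosen later. A few genes that this rule took are not reported here. Positions and exon lengths are from GENCODE M21, matched by symbol (98.1% of tested genes). Lists of neuron, microglia, endothelial, mural and ependymal markers had 4 of 13, 0 of 2, 2 of 6, 2 of 8 and 1 of 5 tested genes called higher and 1, 1, 1, 3 and 1 lower, progenitor markers 4 and 4 of 12, and oligodendrocyte precursor markers 6 and 3 of 12.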

Additional observations from a re-analysis of the deposited data

How the results depend on the processing

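Jag1 and Lfng were called lower under all 17 alternatives, and the falls in the shares of Notch1 among receptors (between -19.7 and -13.0 percentage points) and of Jag1 among ligands (between -33.0 and -19.3) kept their direction in the alternatives run for them. The replicate block took the calls of Notch1, Furin, Gxylt1, Adam17, Ncstn and Tle1 (values above) and, of the nearest genes, of Pgm1 (adjusted p = 0.051) and Specc1l (0.105), and changed no other call of a named gene. It called 3213 genes higher and 2626 lower. It left the shares' mean paired differences at -16.5 and -24.0, where 3 pairs cannot give an exact permutation p under 0.25. With libraries left out, genes called higher ran from 1943 to 4271 and lower from 1333 to 3818, members higher from 0 to 2 and members lower from 2 to 3. The lowest counts were those without PDGFA 68 (2245 higher, 1873 lower) and without mouse 68 in both groups (1943 and 1333). Log2 fold changes that turned were all of uncalled genes. With libraries left out they ran from -0.065 to 1.05 for Notch3, -0.32 to 1.01 for Dll3, -0.11 to 0.95 for Lrp1, -0.22 to 0.84 for Tmtc1, -0.011 to 0.83 for Slitrk2, -0.34 to 0.72 for Nav3, -0.16 to 1.11 for Ptprd, -0.026 to 0.997 for Vcan and -0.0039 to 0.28 for Rbpj. In edgeR and DESeq2 they were -0.053 and -0.059 for Dll3, -0.17 and -0.17 for Nav3, and -0.036 and -0.041 for Ptprd. The cause was not tested.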
